A study of Homo sapiens with 8 samples.

Results

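The MYC, MAX and MXD network is a family of transcription factor genes whose proteins compete for shared partners on DNA. Its 10 genes here were MYC, MYCN, MYCL, MAX, MXD1, MXD3, MXD4, MXI1, MNT and MLX, taken by name from both expression tables, and 10 of 10 were found in each, among 58375 distinct gene names in all. RNA sequencing of poly(A) RNA covered 8 libraries of 2 established lung cancer lines, NCI-H1688 and NCI-H146, which the labels describe as small cell lung cancer. Cells of each line had received lentivirus with a control short hairpin RNA (shRNA; genotype given as WT) or with an shRNA against KLF9 (genotype given as KLF9 knockdown), followed in every group by 2 weeks of puromycin, so all libraries come from infected and drug-selected cells. There were 2 libraries in each of the 4 groups. KLF9 is a Krüppel-like zinc-finger factor, and the series asks what its depletion does to gene expression. The labels speak of biological replicates of stably selected lines but not of separate infections or of how many hairpins were used, so p-values measure the spread between these libraries.

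MYC, MYCN and MYCL are basic helix-loop-helix leucine zipper proteins that pair with MAX, bind the E-box sequence and raise transcription of genes for ribosome assembly, nucleotide synthesis and cell growth. MXD1, MXD3, MXD4, MXI1 and MNT pair with the same MAX protein, occupy the same sites and recruit the SIN3-HDAC corepressor. MLX is a MAX-like partner that joins the glucose-sensing factors MondoA (MLXIP) and ChREBP (MLXIPL), and it can also pair with MXD1, MXD4 and MNT. In small cell lung cancer, amplification or high expression of a MYC family gene is a well-known feature, and the family member used differs between tumours.

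KLF9 RNA was lower in the NCI-H146 libraries that carried its shRNA, with 67.0 and 61.8 CPM (counts scaled to the library's TMM-adjusted total) in the controls against 24.9 and 32.3 CPM (log2 fold change -1.17, edgeR adjusted p = 0.0131). In NCI-H1688 it went against the label, with 0.298 and 0.644 TPM (a depth- and length-scaled abundance) in the controls and 1.95 and 1.60 TPM in the libraries named as its knockdown (limma adjusted p = 0.0952). These are called the labelled knockdowns, and every direction in that line follows the labels only. Neuroendocrine markers of classical small cell lung cancer were low in NCI-H1688 and ranged more widely in NCI-H146. NEUROD1 and INSM1 were listed at 0 in all 4 NCI-H1688 libraries, and the 5 markers reported together summed to between 0.944 and 2.00 TPM. In NCI-H146, NEUROD1 and NCAM1 stayed under 1 CPM, CHGA lay between 0.202 and 3.12 CPM and SYP between 1.48 and 9.30 CPM, while INSM1 was not analysed here. Of the epithelial markers, EPCAM was at 124 to 136 TPM in NCI-H1688 and 7.26 to 19.7 CPM in NCI-H146, where KRT8 had 111 to 193 CPM and CDH1 0.472 to 2.98 CPM. Some marker sums moved with the groups, and their part in the results was not tested. The 4 epithelial markers summed to 2431 and 2518 TPM in the NCI-H1688 controls and 1451 and 1480 TPM in the labelled knockdowns. KRT8 (1202 and 1227 against 629 and 656 TPM) and KRT18 (1051 and 1092 against 617 and 611 TPM) were lower there, whereas CDH1 was higher (54.7 and 63.2 against 81.7 and 80.8 TPM) and EPCAM overlapped. In NCI-H146 the neuroendocrine sum was 2.49 and 3.07 CPM in the controls, against 7.65 and 13.0 CPM. The fibroblast sum there was 105 and 48.9 CPM against 24.0 and 28.3 CPM, nearly all of it COL1A1, while COL1A2 and LUM stayed under 1 CPM and DCN was not analysed here. The NCI-H146 libraries held 15406264 to 16109803 counts, and mitochondrially encoded protein genes took 8.56% of them in KLF9 shRNA replicate 1 against 0.897% to 1.20% in the other 3. In NCI-H1688 these genes took 15.0% and 14.3% of the summed TPM in the controls, against 17.7% and 16.3% in the labelled knockdowns.

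MYC (chromosome 8, 127735434 to 127741434, plus strand; all positions of genes are from GENCODE 29 on GRCh38, and all members are protein coding) was the dominant MYC family gene in every library. In NCI-H1688 the controls held 285 and 277 TPM of it, against 196 and 209 TPM in the labelled knockdowns. In bulk RNA such as this, fewer cells with a transcript and less of it per cell cannot be told apart. Both control values lay above both others, and MYC fell 1.39-fold (log2 fold change -0.47 with a standard error, SE, of 0.0561, limma adjusted p = 0.0150). In NCI-H146, whose values are on another scale, the controls had 9973 and 8555 CPM and the KLF9 shRNA libraries 7994 and 4717 CPM. Here too the groups did not overlap, but the KLF9 shRNA libraries lay far apart from each other, and the difference missed the threshold (log2 fold change -0.54 with SE 0.474, edgeR adjusted p = 0.442). Without KLF9 shRNA replicate 2 the log2 fold change in NCI-H146 was -0.21 (edgeR adjusted p = 0.765), and without replicate 1 it was -0.96 (edgeR adjusted p = 0.0986). MYC took 0.961% and 0.900% of all counts in the NCI-H146 controls, and 0.757% and 0.490% in the KLF9 shRNA libraries. The widest Wilson 95% interval, for control replicate 2, ran from 0.956% to 0.966% and covers counting error only. By counts it ranked between the 2nd and the 6th gene of the library in NCI-H146, and by CPM per kilobase of exon between the 2nd and the 7th. In NCI-H1688 its TPM, which are also scaled for length, ranked between 311th and 460th.

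The other MYC genes were low. MYCN, the family member first found in neuroblastoma, was listed at 0 TPM in all 4 NCI-H1688 libraries, and in NCI-H146 it had 5.12 and 4.66 CPM in the controls and 5.42 and 5.37 CPM with KLF9 shRNA (edgeR adjusted p = 0.817). Those levels rest on 76 to 86 counts per library. MYCL, first isolated from small cell lung cancer, had 2.14 and 2.24 TPM in the NCI-H1688 controls and 3.19 and 3.70 TPM in the labelled knockdowns. The groups did not overlap, but the difference did not pass (log2 fold change 0.48 with SE 0.168, limma adjusted p = 0.128). In NCI-H146, MYCL had 5.66 and 4.78 CPM in the controls and 6.09 and 7.93 CPM with KLF9 shRNA (log2 fold change 0.43, edgeR adjusted p = 0.430). Of the summed length-scaled level of the 3 MYC genes, MYC itself made up 98.3% to 99.9% in the 8 libraries.

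MAX, the partner that MYC and MXD proteins share (chromosome 14, 65006174 to 65102695, minus strand), fell in NCI-H146. It had 205 and 166 CPM in the controls and 111 and 81.4 CPM in the KLF9 shRNA libraries, so both control values were above both others. The change was 1.93-fold (log2 fold change -0.95 with SE 0.286, edgeR adjusted p = 0.0338). The call was lost without the filter on low counts (edgeR adjusted p = 0.0524). It was also lost without control replicate 2 (log2 fold change -0.75) or control replicate 3 (-1.09). Without KLF9 shRNA replicate 1 the log2 fold change was -1.18, and without KLF9 shRNA replicate 2 it was -0.74. The number of genes called in that line also moved with the library left out. In NCI-H1688, MAX had 67.4 and 64.4 TPM in the controls and 62.7 and 63.4 TPM in the labelled knockdowns. These values lay within a few TPM of each other, the difference did not pass (log2 fold change -0.063 with SE 0.0573, limma adjusted p = 0.490), and its sign turned under quantile normalization (0.021).

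**Figure D1:**
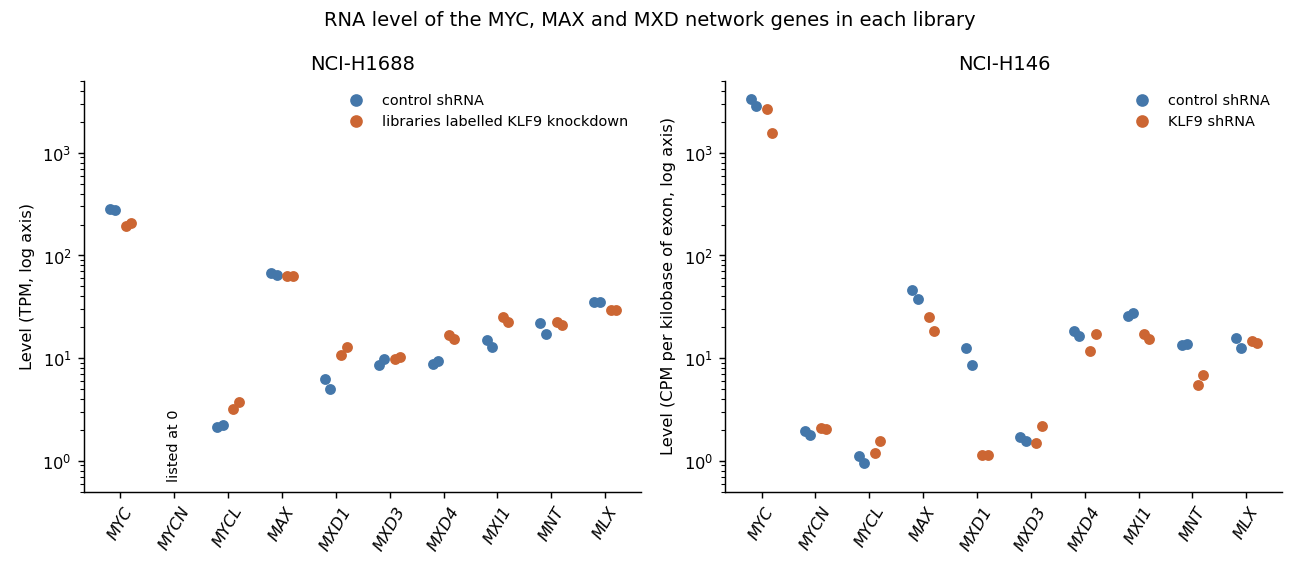
Level of each of the 10 network genes in every library on a log axis, with 1 point per library and colours for control and KLF9 shRNA. Levels are in TPM for NCI-H1688 and in TMM-scaled CPM per kilobase of exon for NCI-H146. MYC in NCI-H1688 lies between 196 and 285 TPM, and MXD1 in NCI-H146 drops from 80.3 and 54.2 CPM to 7.31 and 7.30 CPM.

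Among the repressor genes, MXD1 moved in both lines and in opposite directions. MXD1 (chromosome 2, 69897688 to 69942945, plus strand) encodes the MAX-binding repressor first described as MAD, which rises as many cell types stop dividing and differentiate. In NCI-H146 its level was 80.3 and 54.2 CPM in the controls and 7.31 and 7.30 CPM with KLF9 shRNA, from 1192 and 918 counts against 108 and 117. Both KLF9 shRNA libraries lay far below both controls, and MXD1 fell 9.20-fold (log2 fold change -3.20 with SE 0.326, edgeR adjusted p = 0.000127). The size of that change exceeded that of 99.7% of the genes tested in the line. Leaving out each library in turn kept it between -3.46 and -2.85 on the log2 scale, with an edgeR adjusted p of at most 0.00438. In NCI-H1688, MXD1 had 6.32 and 4.98 TPM in the controls and 10.7 and 12.7 TPM in the labelled knockdowns. There it rose 2.07-fold, from 5.65 ± 0.947 to 11.7 ± 1.44 TPM (SD, n = 2 each; log2 fold change 0.93 with SE 0.155, limma adjusted p = 0.0269). In that line the call was lost with no filter on low values (limma adjusted p = 0.0782), with no trend (limma adjusted p = 0.0598) and without any 1 library (limma adjusted p between 0.0830 and 0.183). MXD1 shares 237 exon bases with SNRNP27 on the same strand, so reads in that stretch could belong to either gene.

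MXD4 (chromosome 4, 2247432 to 2262294, minus strand) and MXI1 (chromosome 10, 110207605 to 110287365, plus strand) rose in NCI-H1688. MXD4, another MAX-binding repressor of the MXD branch, had 8.76 and 9.32 TPM in the controls and 16.8 and 15.4 TPM in the labelled knockdowns, a 1.78-fold rise (log2 fold change 0.77 with SE 0.0934, limma adjusted p = 0.0157). MXI1, a MAX-binding repressor that hypoxia is known to induce, had 15.1 and 13.0 TPM in the controls and 25.1 and 22.2 TPM in the other libraries, a 1.69-fold rise (log2 fold change 0.72 with SE 0.112, limma adjusted p = 0.0239). For both genes the groups stood clear of each other. The MXI1 call was lost with no filter on low values (limma adjusted p = 0.0656) and with no trend (limma adjusted p = 0.0610), and both calls were lost without any 1 library. In NCI-H146 neither passed with all libraries in the fit. MXD4 had 129 and 116 CPM in the controls and 82.9 and 120 CPM with KLF9 shRNA, which overlap (edgeR adjusted p = 0.540). MXI1 had 118 and 126 CPM in the controls and 79.4 and 70.5 CPM with KLF9 shRNA, which do not overlap (log2 fold change -0.71 with SE 0.271, edgeR adjusted p = 0.0798). With each library left out in turn, the log2 fold change of MXI1 in NCI-H146 ranged from -0.78 (without KLF9 shRNA replicate 1) to -0.62 (without KLF9 shRNA replicate 2).

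MNT, a broadly expressed MAX-binding repressor that counters MYC (chromosome 17, 2384060 to 2401118, minus strand), fell in NCI-H146. It had 116 and 119 CPM in the controls and 47.5 and 59.6 CPM with KLF9 shRNA, a 2.19-fold decrease with no overlap (log2 fold change -1.13 with SE 0.277, edgeR adjusted p = 0.0136). With control replicate 2 left out it missed the threshold at a log2 fold change of -1.11, and likewise at -1.12 with control replicate 3 left out. Without KLF9 shRNA replicate 1 the log2 fold change was -0.96, and without KLF9 shRNA replicate 2 it was -1.30. In NCI-H1688, MNT had 22.1 and 17.1 TPM in the controls and 22.5 and 20.8 TPM in the labelled knockdowns, which overlap (limma adjusted p = 0.496). MNT shares 1065 exon bases with an antisense gene, AC006435.1. MXD3, a member of the repressor branch found mostly in dividing cells, overlapped between groups in both lines, with 8.49 to 10.2 TPM in NCI-H1688 (limma adjusted p = 0.536) and 7.65 to 11.2 CPM in NCI-H146 (edgeR adjusted p = 0.759). Its exons share 1158 bases with PRELID1 and 926 with RAB24, and neither table records whether counting used strand.

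MLX, the partner of MondoA and ChREBP (chromosome 17, 42567068 to 42573239, plus strand), had 35.6 and 35.5 TPM in the NCI-H1688 controls and 29.2 and 29.3 TPM in the labelled knockdowns. The libraries of a group were nearly equal and the groups did not overlap, yet the difference lay just outside the threshold (log2 fold change -0.27 with SE 0.0611, limma adjusted p = 0.0501). With a minimum of 5 TPM in place of 1 TPM it passed (limma adjusted p = 0.0348). In NCI-H146 the MLX values were 66.8 and 53.9 CPM in the controls and 62.4 and 60.1 CPM with KLF9 shRNA, which overlap (log2 fold change 0.020 with SE 0.273, edgeR adjusted p = 0.966). MLX shares 770 exon bases with PSMC3IP on the opposite strand.

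Counted together, the members that were called were mostly higher in NCI-H1688 and lower in NCI-H146. In NCI-H1688, 9 of the 10 were tested, MYCN being at 0, and limma called 3 higher (MXD1, MXD4 and MXI1) against 6.36% of the 14754 genes tested, and 1 lower (MYC) against 9.67%. Calls in either direction made up 16.0% of the genes tested there. In NCI-H146 all 10 were tested, and edgeR called 3 lower (MXD1, MNT and MAX) against 9.12% of the 13129 genes tested, with 17.1% called in either direction. It called 0 members higher, against 8.01% of genes. DESeq2 and limma-voom also called 0 higher, and 0 had a higher value at an unadjusted p under 0.05. Groups did not overlap for 7 of the 9 tested members in NCI-H1688, where 62.7% of all genes tested did not overlap, and for 7 of 10 in NCI-H146, where the share was 62.5%. The median log2 fold change of the tested members was 0.15 in NCI-H1688 and -0.40 in NCI-H146, beside -0.021 and 0.0053 over all genes tested. The 4 calls in NCI-H1688 rest on all 4 libraries. Without any 1 of them no member passed (limma adjusted p between 0.0774 and 0.183 for those 4 genes), while their fold changes kept their sign.

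**Figure D2:**
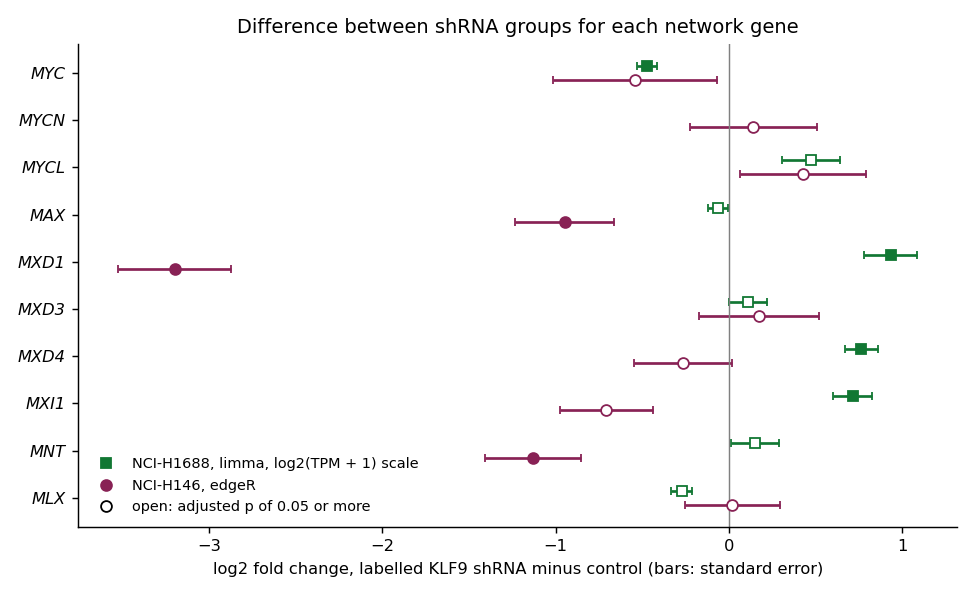
Log2 fold change of each network gene, KLF9 shRNA over control, with its standard error, in NCI-H1688 (on log2(TPM + 1)) and in NCI-H146 (edgeR on counts), filled where the adjusted p is under 0.05. MXD1 lies at 0.93 in one line and at -3.20 in the other, and MYCN has no value in NCI-H1688 because it is at 0.

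The promoters of the 4 repressors called in at least 1 line are shown because these genes share partners and binding sites yet moved differently. The stretches come from RefSeq (GRCh38.p14), within the 250 bases before an annotated start and outside GENCODE exons, 5′ to 3′ on the gene's strand. Capitals mark the E-box CACGTG, which MYC-MAX and MXD-MAX pairs read, and the GC box GGGCGG or its reverse complement CCGCCC, which Sp and Krüppel-like factors read.
MXD1 (chr2:69914859-69915040, plus strand): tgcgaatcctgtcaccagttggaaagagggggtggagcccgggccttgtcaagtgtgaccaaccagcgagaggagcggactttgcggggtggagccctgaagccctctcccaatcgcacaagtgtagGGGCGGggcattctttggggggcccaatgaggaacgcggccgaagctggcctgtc
MXD4 (chr4:2262295-2262359, minus strand): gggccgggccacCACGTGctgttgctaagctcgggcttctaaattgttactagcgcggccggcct
MXI1, most upstream of 3 starts (chr10:110207355-110207604, plus strand): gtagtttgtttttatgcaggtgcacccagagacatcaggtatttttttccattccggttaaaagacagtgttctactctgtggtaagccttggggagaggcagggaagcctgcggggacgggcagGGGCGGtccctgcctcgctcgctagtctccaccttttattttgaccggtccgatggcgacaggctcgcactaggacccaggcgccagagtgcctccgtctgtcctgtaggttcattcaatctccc
MNT (chr17:2401119-2401310, minus strand): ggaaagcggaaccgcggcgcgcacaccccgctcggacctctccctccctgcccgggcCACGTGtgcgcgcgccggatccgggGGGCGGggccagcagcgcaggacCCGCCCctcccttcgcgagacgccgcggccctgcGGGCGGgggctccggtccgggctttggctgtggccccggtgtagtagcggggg

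The printed stretches differ in length, so motifs were counted over whole 250-base windows. The MNT window holds 1 E-box and 4 GC boxes, the MXD4 window 1 E-box and 1 GC box, and the MXD1 window 2 GC boxes and no CACGTG. The windows of the 3 MXI1 starts hold 1, 3 and 4 GC boxes and no CACGTG, and that of MLX holds 1 of each motif. Over 35114 RefSeq promoters, a 250-base window holds CACGTG in 6.35% and a GC box on either strand in 42.6%. A match says only that these letters are present, and the absence of one says nothing about binding.

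When the members were set on a scale corrected for gene length, their order differed between the lines. In NCI-H1688 TPM the control order was MYC, MAX, MLX, MNT, MXI1, MXD3, MXD4, MXD1, MYCL and MYCN. Ranges over the 4 libraries overlapped between MNT and MXI1, between MXD3 and MXD4 and between MXD4 and MXD1, while the other neighbours were apart. In NCI-H146, by CPM per kilobase of exon, the control order was MYC, MAX, MXI1, MXD4, MLX, MNT, MXD1, MYCN, MXD3 and MYCL. There MYC alone stood apart from its next neighbour, since all later neighbours overlapped over the 4 libraries.

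The length-scaled levels also give the RNA balance between the MYC genes and the 5 repressors that compete for MAX. In NCI-H1688 the repressors summed to 60.7 and 54.2 TPM in the controls and to 84.8 and 81.4 TPM in the labelled knockdowns, 1.45-fold more. The ratio of the summed MYC genes to the summed repressors was 4.72 and 5.15 in the controls, against 2.35 and 2.61 in the labelled knockdowns. The groups did not overlap, and the mean ratio was 4.94 ± 0.300 against 2.48 ± 0.185 (SD, n = 2 each). In NCI-H146 the summed repressors were 71.5 and 67.5 CPM per kilobase in the controls and 37.1 and 42.5 with KLF9 shRNA. MYC values were also lower there, and the ratio was 46.5 and 42.3 in the controls, against 72.0 and 37.1 with KLF9 shRNA, which overlap. These sums and ratios are described without a test. The ratio of MYC to MXD1 alone was 263 and 334 in the NCI-H146 controls, against 2314 and 1367 with KLF9 shRNA. In NCI-H1688 it was 45.0 and 55.6 in the controls, against 18.4 and 16.4. The groups did not overlap in either line, which follows from the MYC and MXD1 levels given above and is no separate result. These are ratios of RNA and not of protein.

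**Figure D3:**
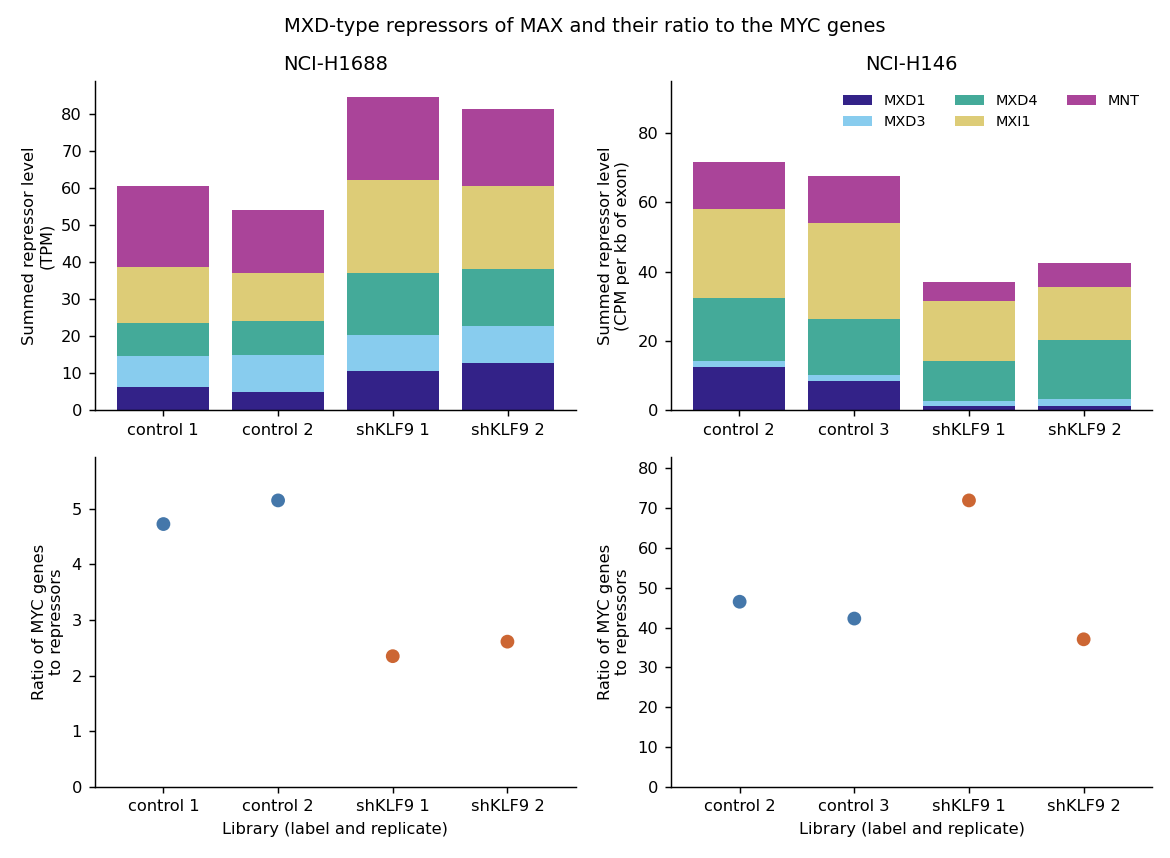
Levels of the repressors (MXD1, MXD3, MXD4, MXI1, MNT) in each library, stacked to their sum, and the ratio of the summed MYC genes (MYC, MYCN, MYCL) to that sum. Levels are in TPM for NCI-H1688 and CPM per kilobase of exon for NCI-H146. The ratio falls from 4.72 and 5.15 to 2.35 and 2.61 in NCI-H1688, and in NCI-H146 the groups overlap.

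The genes whose pattern over the 8 libraries lay closest to a member, among 10773 genes tested in both lines, were found by Euclidean distance of log2 levels centred within each line. For MXD1 they were ARRDC4 (distance 0.762), the immediate early gene EGR1 (0.788) and CREBRF (0.832), which is a wider spacing than for any other member searched. ARRDC4 had log2 fold changes of 0.80 in NCI-H1688 and -2.45 in NCI-H146, and EGR1 had 0.87 and -2.68. For MAX the closest were DEPDC7, UMAD1 and PPP4R3A (0.110 to 0.143), and for MNT they were EIF5A2, CD164 and SGMS2 (0.174 to 0.207). For MXI1 they were ABCA5, SIK2 and SP1, for MXD4 they were ARID5A, IDH2 and JUND, and for MYC they were LPAR1, PEA15 and ANAPC13.

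The 3 other direct partners did not pass in either line. MGA, a MAX-binding repressor, had 6.75 and 5.40 TPM in the NCI-H1688 controls and 7.25 and 8.43 TPM in the labelled knockdowns (limma adjusted p = 0.213). MLXIP, which encodes MondoA, had 17.4 and 15.2 TPM against 14.2 and 13.8 TPM (limma adjusted p = 0.233). MLXIPL, which encodes ChREBP, was at 1.08 to 1.45 TPM (limma adjusted p = 0.812). In NCI-H146 the edgeR adjusted p was 0.495, 0.971 and 0.446 for MGA, MLXIP and MLXIPL, and MLXIPL stayed at 4.13 to 8.14 CPM.

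Of 6 known targets of MLX with MondoA and ChREBP, 5 were tested in each line, and those called were higher in NCI-H1688 and lower in NCI-H146. In NCI-H1688, 3 of 5 rose, against 6.36% of all genes tested, with a median log2 fold change of 0.45. TXNIP, an arrestin that limits glucose uptake, had 97.8 and 101 TPM in the controls and 229 and 224 TPM in the labelled knockdowns (log2 fold change 1.18, limma adjusted p = 0.00283). ARRDC4, a related arrestin, had 6.54 and 5.61 TPM against 11.3 and 11.3 TPM (log2 fold change 0.80, limma adjusted p = 0.0200), and HK2, a hexokinase, also rose (log2 fold change 0.45, limma adjusted p = 0.0286). KLF10 and PFKFB3, a regulator of glycolysis, overlapped between groups there (log2 fold change -0.022 and 0.11). In NCI-H146, 3 of 5 fell, against 9.12% of all genes tested, with a median of -1.53, and PFKFB3 (0.64) and HK2 (0.47) had positive values that did not pass. KLF10, a Krüppel-like repressor, had 197 and 212 CPM against 33.0 and 25.5 CPM (log2 fold change -2.81, edgeR adjusted p = 0.000135). ARRDC4 had 59.7 and 46.1 CPM against 8.60 and 10.8 CPM (log2 fold change -2.45, edgeR adjusted p = 0.000511). TXNIP had 219 and 255 CPM against 57.0 and 107 CPM (log2 fold change -1.53, edgeR adjusted p = 0.00699), and no longer passed without control replicate 2 (edgeR adjusted p = 0.130) or control replicate 3 (edgeR adjusted p = 0.0501). Without KLF9 shRNA replicate 1, some listed genes were also called higher in NCI-H146, where the count over all genes moved with the library left out. In NCI-H1688 no listed gene passed once any 1 library was left out.

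**Figure D4:**
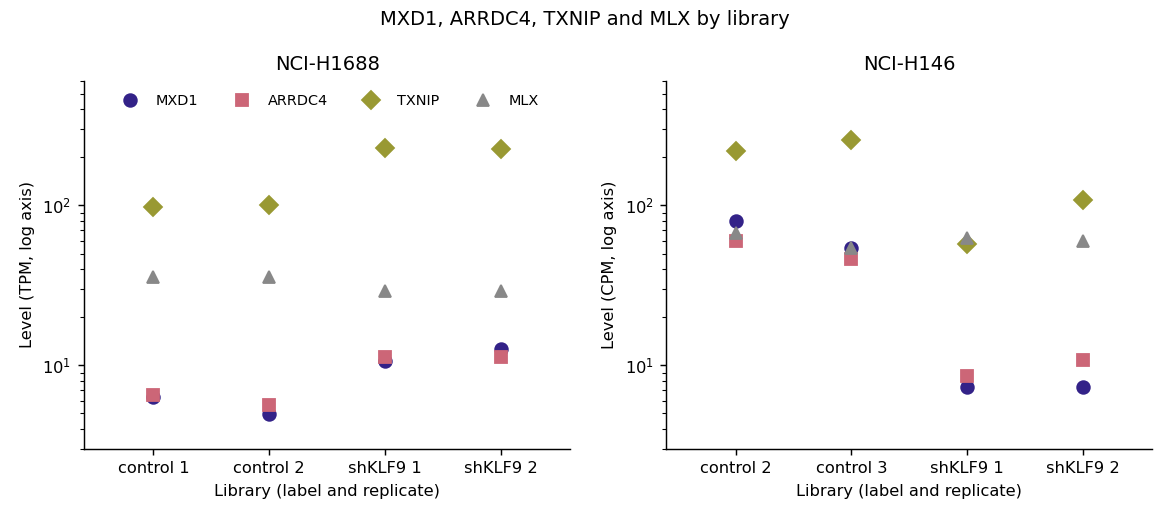
Levels of MXD1, ARRDC4, TXNIP and MLX in each library on log axes, TPM in NCI-H1688 and TMM-scaled CPM in NCI-H146, with 1 point per library. MXD1, ARRDC4 and TXNIP are higher under the KLF9 knockdown label in NCI-H1688 and lower with KLF9 shRNA in NCI-H146, while MLX in NCI-H146 overlaps between groups.

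Textbook targets that MYC raises were mostly called lower in NCI-H1688, and those called in NCI-H146 were higher. In NCI-H1688, limma called 22 of 30 lower, against 9.67% of all genes tested, and 1 higher (TFRC, the transferrin receptor), with a median log2 fold change of -0.53. ODC1, the first enzyme of polyamine synthesis, had 87.7 and 93.2 TPM in the controls and 42.6 and 47.4 TPM in the labelled knockdowns (log2 fold change -0.99, limma adjusted p = 0.00777). MRTO4, a ribosome assembly factor, fell by 1.01 and CCND2, a G1 cyclin, by 0.74 on the log2 scale. In NCI-H146, edgeR called 5 of 30 higher, against 8.01% of all genes tested, with a median of 0.40. It called 0 lower, and 0 were lower at an unadjusted p under 0.05 and by DESeq2 or limma-voom. Calls in either direction made up 17.1% of all genes tested in NCI-H146, which is near the share called in this list. CAD, the enzyme that begins pyrimidine synthesis, had 88.5 and 137 CPM in the controls and 258 and 328 CPM with KLF9 shRNA (log2 fold change 1.38, edgeR adjusted p = 0.00918). BOP1, a ribosome assembly factor, and NME1, a nucleoside diphosphate kinase, rose by 1.30 and 1.05. MYC RNA itself was lower in the KLF9 shRNA libraries of NCI-H146 without passing, as given above. The NCI-H146 calls were nearly all lost when either control library was left out. The count over all genes in that line also moved with the library left out. In NCI-H1688 the count of lower genes was 0 without any 1 library.

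Genes that MYC represses were mostly called higher in NCI-H1688, and those called in NCI-H146 were lower. Of 8 listed genes 7 were tested in NCI-H1688, where 4 rose and 1 fell, against 6.36% and 9.67% of all genes tested (median log2 fold change 0.52). NDRG1, a stress-induced gene, had 43.2 and 45.3 TPM in the controls and 203 and 199 TPM in the labelled knockdowns (log2 fold change 2.16, limma adjusted p = 0.00117). CDKN1B, which encodes the cell cycle inhibitor p27, rose by 1.00 and GADD45A, a DNA damage response gene, fell by 0.87. CDKN1C, 1 of the 4 that rose, averaged 0.685 TPM in the controls and 3.03 TPM in the labelled knockdowns. It reached the mean of 1 TPM needed for testing through the labelled knockdowns alone, so it could not have been called lower. In NCI-H146, 3 of 8 fell, against 9.12% of all genes tested, and 0 rose by edgeR, by DESeq2, by limma-voom or at an unadjusted p under 0.05 (median -0.74). NDRG1 had 75.4 and 55.3 CPM in the controls and 15.0 and 24.0 CPM with KLF9 shRNA (log2 fold change -1.74, edgeR adjusted p = 0.00374), and GADD45B also fell (log2 fold change -1.31, edgeR adjusted p = 0.0215). CDKN2B, another cell cycle inhibitor gene and 1 of the 3 that fell, had 3.50 and 1.53 CPM against 0.135 and 0.250 CPM. These levels rest on 52 and 26 counts against 2 and 4. The gene passed the filter on low counts through the controls alone, so it could not have been called higher. The NCI-H146 calls did not hold without control replicate 2, and more listed genes were called without KLF9 shRNA replicate 2. The count over all genes in NCI-H146 also moved with the library left out. In NCI-H1688, 1 gene rose without control replicate 1 or control replicate 2, and 0 without either library labelled KLF9 knockdown.

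**Figure D5:**
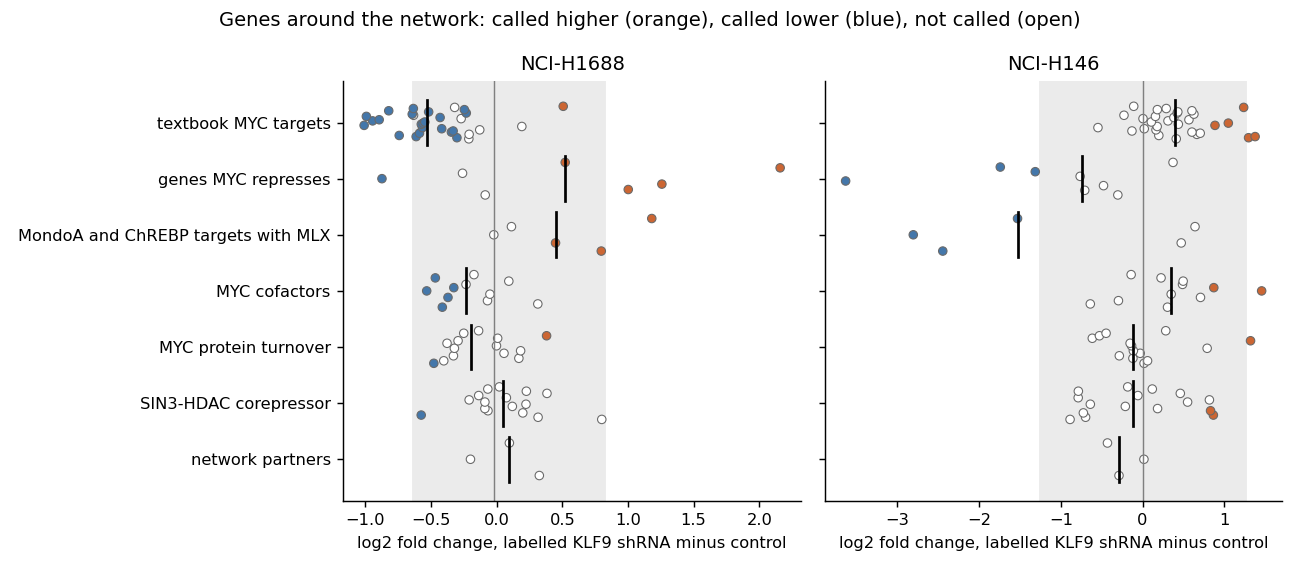
Log2 fold change of every tested gene of the gene lists around the network (KLF9 shRNA over control), with the median of each list marked and 1 panel per line. The textbook MYC targets have a median of -0.53 in NCI-H1688 and 0.40 in NCI-H146.

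Genes of the machinery around the network were called in both directions, beside 16.0% of all genes tested in NCI-H1688 and 17.1% in NCI-H146. Of 11 MYC cofactors, limma called 5 lower and 0 higher in NCI-H1688 (1 higher at an unadjusted p under 0.05), among them RUVBL1, an ATPase of chromatin remodelling complexes, with 95.0 and 101 TPM against 69.1 and 66.0 TPM, KAT2A, a histone acetyltransferase, and WDR5, a chromatin adaptor that MYC binds. In NCI-H146 edgeR called 2 cofactors higher. RUVBL1 had 65.0 and 66.9 CPM in the controls and 187 and 176 CPM with KLF9 shRNA (log2 fold change 1.46), and RUVBL2, its partner ATPase, rose by 0.87. Of 16 SIN3-HDAC genes limma called 1 in NCI-H1688 and edgeR 2 in NCI-H146, and of 14 genes of MYC protein turnover they called 2 and 1. These SIN3-HDAC and turnover shares are below those of all genes and are no result about the lists. The share of cofactors called in NCI-H146 is near that of all genes and is likewise no result about that list. BRMS1, a subunit of the complex, fell in NCI-H1688 (73.9 and 81.5 against 51.1 and 52.4 TPM) and rose with HDAC1, the histone deacetylase, in NCI-H146 (BRMS1 29.8 and 24.1 against 45.1 and 53.1 CPM). Among the turnover genes, AURKA, a kinase known to stabilise MYCN protein, fell by 0.48 and USP28, a deubiquitinase of MYC, rose by 0.38 in NCI-H1688, while STUB1, a ubiquitin ligase, rose by 1.32 in NCI-H146. The medians of the cofactor, SIN3-HDAC and turnover lists were -0.23, 0.05 and -0.19 in NCI-H1688 and 0.35, -0.12 and -0.12 in NCI-H146. With either control library left out, no gene of these 3 lists was called in NCI-H146. With either KLF9 shRNA library left out, the counts and directions of calls changed, as did the count over all genes.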

How the data were processed

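Poly(A) RNA was sequenced, and the labels' protocols give random-primed cDNA after fragmentation. Per the submitters' processing notes STAR 2.5.1, DESeq2 and GRCh38 (hg38) were used, with no step named, and the counting program and annotation are not given in the sources used here. For NCI-H146 the deposited values are whole-number read counts per gene (17169 rows). For NCI-H1688 the deposited values are TPM (58434 rows, 1599 of them with a shared gene name, for which the most abundant was used). The TPM columns sum to 842439 to 885111 over the names kept, and the scaling behind this is not recorded. TPM keep no depth, and the spacing of low values put the reads behind each detected member at 145 (MYCL) to 11390 (MYC) per library. Each line was fitted alone over its whole table because the tables were normalized separately. For NCI-H146 the quasi-likelihood F test of edgeR 4.0.16 (R 4.3.3, TMM, filterByExpr) was used, and SE is the absolute log2 fold change over the root of F. For NCI-H1688, limma 3.58.1 with a trend was run on log2(TPM + 1), keeping genes that averaged 1 TPM or more, a scale that understates changes of low genes. P-values were adjusted by Benjamini-Hochberg over all genes tested, and an adjusted p under 0.05 is a call. Both tests were tried on simulated data. CPM per kilobase used GENCODE 29 exon lengths. Alternatives were DESeq2 1.42.0, limma-voom, other scalings, filters, pseudocounts, a replicate block and each library left out. The members, gene lists and comparisons were chosen with earlier results of these data known. Named genes are all members, KLF9, the 3 partners, up to 3 called genes of each list and line with the smallest adjusted p, and the 3 genes nearest to each called member. Cell type markers come from a list. TFRC, PFKFB3, PVT1 and CDKN1C, and HK2 and KLF10 in the line where each was not called, were added after their values were seen. Of the neuroendocrine markers listed, 1 is not reported here.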

Additional observations from a re-analysis of the deposited data

Results flagged for a closer look

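MXD1 and MXI1 had opposite directions in the 2 lines, with both KLF9 shRNA libraries of a line on the same side of both controls. The log2 fold change of MXD1 was 0.93 in NCI-H1688 and -3.20 in NCI-H146, and both values passed the test of their own line. That of MXI1 was 0.72 in NCI-H1688, where it passed, and -0.71 in NCI-H146, where it did not. The difference between the lines was not tested, because the values have different units and were normalized separately. In NCI-H1688 the labels of the libraries and the level of KLF9 RNA go in opposite directions, though the KLF9 difference rests on few reads and did not pass (limma adjusted p = 0.0952).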

How the results depend on the processing

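Scaling by TMM, leaving out mitochondrially encoded genes and, in NCI-H146, DESeq2, upper-quartile and RLE scaling moved no count of calls by over 1.5 times. Other settings did, and the cause was not tested. Within that bound, leaving out mitochondrially encoded genes in NCI-H1688 gave 1157 genes lower in place of 1427, and 18 MYC targets lower in place of 22. With no filter on low values, NCI-H1688 had 943 genes called (394 higher, 549 lower), 1 member higher, 2 cofactors lower, 0 turnover genes higher, 13 MYC targets lower, 1 MondoA and ChREBP target higher and 2 genes that MYC represses higher. Without a trend in limma it had 834 (488 higher, 346 lower), 1 member higher and 0 lower, 0 SIN3-HDAC genes and 0 cofactors lower, 0 turnover genes in either direction, and 0 MYC targets higher and 11 lower. Same-numbered NCI-H1688 libraries did not deviate together (r = -0.00508 across 14754 genes). With the replicate number as a block there were 1218 genes called (509 higher, 709 lower), 1 cofactor lower, 0 turnover genes higher, 13 MYC targets lower and 2 genes that MYC represses higher. No paired analysis was possible for NCI-H146 because the groups share only 1 replicate number. At a mean of at least 5 TPM, 2 members and 3 turnover genes were lower. With a pseudocount of 0.1 TPM, 2 turnover genes were lower. Quantile normalization gave 3 cofactors lower and 2 MYC targets higher. In NCI-H146, no filter on low counts gave 0 SIN3-HDAC genes and 1 cofactor higher, and limma-voom gave 1 SIN3-HDAC gene higher.

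Leaving out 1 library left an arm with 1, whose spread is then taken from the other group. The number of genes called ranged from 0 to 24 in NCI-H1688 (0 to 19 higher, 0 to 5 lower) and from 51 to 5026 in NCI-H146 (9 to 2588 higher, 42 to 2438 lower). In NCI-H1688, 0 members and 0 genes of every list were called, except 0 to 1 gene that MYC represses, higher. In NCI-H146 the ranges were 1 to 4 members lower, 0 to 4 cofactors higher and 0 to 1 lower, 0 to 2 turnover genes higher, 0 to 2 MondoA and ChREBP targets higher, 0 to 3 SIN3-HDAC genes higher and 0 to 5 lower, 0 to 7 MYC targets higher and 0 to 6 genes that MYC represses lower. Some log2 fold changes that were not called turned sign. In NCI-H1688 these were MAX (0.021) and MLXIPL (-0.054) under quantile normalization, and MNT, which ranged from -0.024 (without control replicate 2) to 0.33 with 1 library left out. In NCI-H146 they were MXD3 (-0.12 without KLF9 shRNA replicate 2, up to 0.43), MLX (-0.13 without control replicate 3, up to 0.22) and MLXIP (-0.081 without control replicate 2 and -0.11 without KLF9 shRNA replicate 2, up to 0.16). Of 8 settings on all NCI-H1688 libraries, MXD4 passed in 8, MYC in 7, MXI1 in 6 and MXD1 in 5. MXD1 lost its call with no filter (limma adjusted p = 0.0782), no trend (0.0598) and the replicate block (0.0598). MYCN and MYCL rest on 76 to 127 counts per library in NCI-H146.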

Other observations

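PVT1, a long noncoding RNA gene that neighbours MYC on chromosome 8, was looked up after its values were seen. In NCI-H146 it had 228 and 241 CPM in the controls and 346 and 908 CPM in the KLF9 shRNA libraries, so both were higher and replicate 2 was by far the highest (log2 fold change 1.42 with SE 0.388, edgeR adjusted p = 0.0224). That replicate also had the lowest MYC level of the line, 4717 CPM. In NCI-H1688, PVT1 had 67.1 and 50.8 TPM in the controls and 65.6 and 37.8 TPM in the labelled knockdowns, which overlap (limma adjusted p = 0.636).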
